A study of Mus musculus with 9 samples.

Results

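The oocyte Fbxw cluster is a family of mouse F-box and WD repeat genes that lie side by side on chromosome 9. Its members were taken as every row of the deposited expression table whose symbol is Fbxw followed by a number from 13 to 28. The rule covers 16 symbols, and 15 of the 19359 rows of the table carried one of them; Fbxw23 had no row and was not analysed here. Expression had been measured as poly(A) RNA in whole mouse embryos taken at 34 h after fertilization, in 9 libraries that each pooled 3 embryos. The 3 groups, with 3 libraries each named A, B and C, were SPN (sham transfer of pronuclei, the control), EPN (early transfer) and LPN (later transfer). Oocytes for all groups came from B6D2F1 females of 8 to 12 weeks that had been stimulated with PMSG, and with hCG where metaphase II eggs were wanted. The labels also describe a selective enucleation of germinal vesicle oocytes that yields abnormal cytoplasts, without saying which group it concerns, so what each group's cytoplasm or pronuclei had been through is known only as far as the group names say. No strain is given for the sires, and whether the pools came from separate days or matings is not stated. Each p-value thus reflects no more than the spread between libraries of a group, which may be technical. That spread combines the gene's own with that of other tested genes, by a trend over level.

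F-box proteins are the receptor subunits of SCF ubiquitin ligases. The F-box binds Skp1, Skp1 binds the cullin scaffold Cul1, Cul1 carries the RING protein Rbx1 that recruits the ubiquitin-loaded E2 enzyme, and the rest of the F-box protein, here a WD repeat domain, holds the substrate. Attachment of the ubiquitin-like protein Nedd8 to the cullin switches the ligase on, and the COP9 signalosome takes it off again. Btrc and Fbxw7 are the widely studied members of the Fbxw class. The genes numbered 13 to 28 belong to a branch expanded in rodents; Fbxw15 was described as a gene expressed in oocytes, and Fbxw24 has been linked to meiotic prophase in females. For most of the others no substrate is firmly known. Maternal transcripts of this kind are stored in the growing oocyte and are for the most part removed as the embryo passes through the 2-cell stage, when its own genome is switched on.

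Library totals ran from 7611781 reads in LPN B to 15559218 in LPN A, and the whole family held 14781 to 30823 reads in a library. A gene with no read could have up to 3 reads, or 0.193 to 0.394 CPM (reads scaled to a common library total), a limit that covers counting error only. Over all tested genes SPN A resembled the EPN libraries (mean Spearman correlation across genes of 0.916) more than the other SPN libraries (0.897), while SPN B and SPN C stood at 0.892 and 0.888 with EPN. All 10 oocyte markers and all 8 markers of the 2-cell embryo were detected in all 9 libraries. Of markers of other cells that a pool could carry over, 7 of 12 cumulus and granulosa genes were in the table. Foxl2 was at 0 throughout, whereas Tnfaip6 (up to 23.7 CPM), Kitl (up to 18.7) and Star (up to 5.67) were detected in all 9 libraries. Fshr, Cyp19a1 and Has2 were at 0 in 5, 2 and 6 libraries. The summed level was 18.96 to 30.7 CPM in SPN, 17.9 to 45.1 in EPN and 14.5 to 28.7 in LPN. The 6 of 10 sperm genes in the table summed to 25.4 to 45.9, 12.2 to 32.6 and 34.7 to 65.0 CPM, and the 4 of 10 blood genes to 48.6 to 107, 37.8 to 90.2 and 17.9 to 35.9 CPM. The part of these markers in the values below was not tested.

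In the RefSeq annotation of GRCm38.p6, 14 of the 15 rows map to chromosome 9 in the order Fbxw21, Fbxw13, Fbxw20, Fbxw14, Fbxw28, Fbxw22, Fbxw16, Fbxw19, Fbxw15, Fbxw24, Fbxw25, Fbxw18, Fbxw26 and Fbxw27, with Fbxw23 between Fbxw19 and Fbxw15. These 15 protein-coding genes form an unbroken run with 0 other protein-coding genes among them. Fbxw17 alone lies elsewhere, on chromosome 13. The authors used the later assembly GRCm39, so no coordinates of whole genes are given; the order of neighbours and the upstream sequences below are those of GRCm38.p6.

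The 14 transcripts from chromosome 9 are close copies of each other. Over their 91 pairs, 78.6% to 99.2% of aligned bases were identical (median 84.2%), while Fbxw17 shared 56.3% to 60.8% with any of them. Fbxw14 and Fbxw28, direct neighbours, were the closest pair at 99.2%, and Fbxw22, next to Fbxw28, matched them at 93.1% and 93.2%. All possible stretches of 150 bases, the length of a sequenced end, were searched for letter for letter in the other members. Of those of Fbxw14 24.6% were found, of those of Fbxw28 26.3%, and 0% for each of the other members. Reads within those stretches cannot be assigned to Fbxw14 or Fbxw28 from their sequence, and how the authors' counter treated such reads is not stated. The split between Fbxw14 and Fbxw28 is therefore uncertain, and their sum is given beside the single values. For stretches of 50 bases the shares were 60.9% in Fbxw14 and 62.9% in Fbxw28. They were 5.77% to 13.2% in the other chromosome 9 genes and 0% in Fbxw17, so shorter reads could be ambiguous in those genes too.

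**Figure D1:**
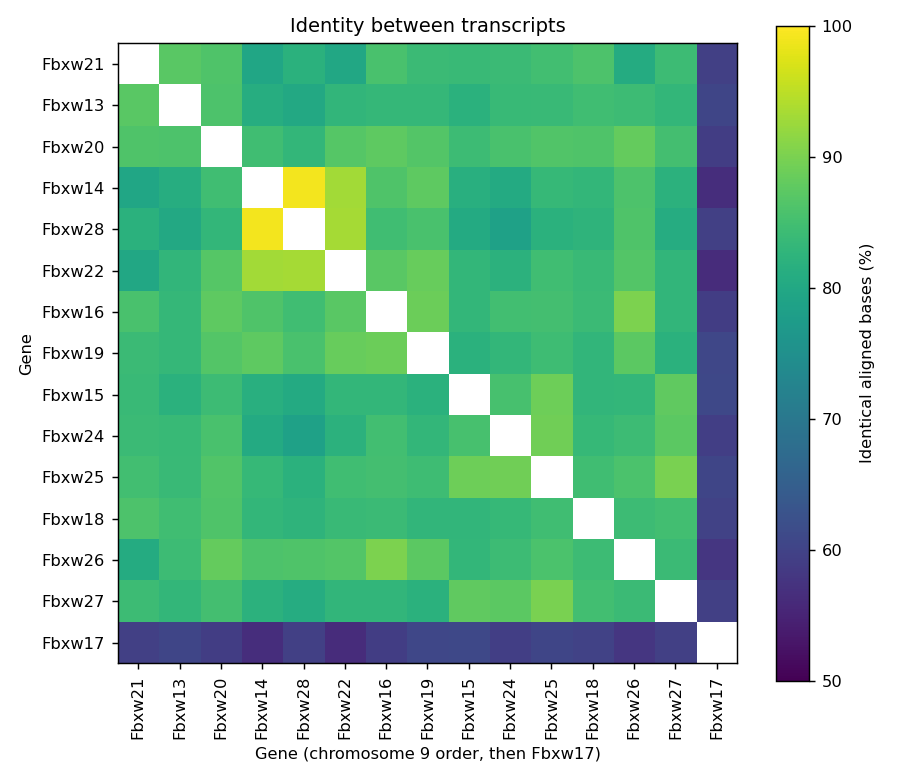
Share of identical aligned bases (%, colour) between the longest annotated protein-coding transcripts of the 15 genes, in chromosome 9 order and then Fbxw17. Fbxw14 and Fbxw28 form the brightest square at 99.2%, and the row of Fbxw17 is dark at 56.3% to 60.8%.

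The upstream sequences are shown because the copies resemble each other there as well, while their transcript levels do not. RefSeq promoters (GRCm38.p6, 250 bases before to 50 after the start) were found for 12 of the 15 genes; Fbxw13, Fbxw22 and Fbxw27 had none in the table used. Among the 11 on chromosome 9, 84.9% to 97.7% of aligned bases were identical over 55 pairs (median 91.6%), against 53.8% to 59.1% for Fbxw17. The 250 bases before the annotated start are given 5′ to 3′ for Fbxw24, the gene with the highest level, for Fbxw26, further along the cluster and at a low level, and for the near-identical pair Fbxw14 and Fbxw28. All 4 lie on the minus strand of chromosome 9, Fbxw24 at chr9:109626060-109626309, Fbxw26 at chr9:109746090-109746339, Fbxw14 at chr9:109287677-109287926 and Fbxw28 at chr9:109339660-109339909 (GRCm38.p6). Capitals mark bases that differ from the aligned base of Fbxw24; inserted or missing bases are not marked.
Fbxw24: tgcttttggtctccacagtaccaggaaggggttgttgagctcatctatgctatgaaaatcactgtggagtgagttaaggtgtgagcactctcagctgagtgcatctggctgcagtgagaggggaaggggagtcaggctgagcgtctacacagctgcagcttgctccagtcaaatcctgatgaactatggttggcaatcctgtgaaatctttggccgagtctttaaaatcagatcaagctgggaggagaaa
Fbxw26: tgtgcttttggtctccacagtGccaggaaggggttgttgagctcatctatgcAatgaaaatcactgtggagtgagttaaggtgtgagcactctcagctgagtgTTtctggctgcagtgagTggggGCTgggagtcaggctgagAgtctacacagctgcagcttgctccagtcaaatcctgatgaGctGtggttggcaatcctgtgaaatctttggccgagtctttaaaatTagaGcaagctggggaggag
Fbxw14: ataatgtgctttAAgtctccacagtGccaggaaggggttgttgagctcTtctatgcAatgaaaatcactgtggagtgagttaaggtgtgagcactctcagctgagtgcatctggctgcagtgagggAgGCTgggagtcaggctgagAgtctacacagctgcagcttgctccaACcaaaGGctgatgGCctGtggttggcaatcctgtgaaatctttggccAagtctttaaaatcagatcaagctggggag
Fbxw28: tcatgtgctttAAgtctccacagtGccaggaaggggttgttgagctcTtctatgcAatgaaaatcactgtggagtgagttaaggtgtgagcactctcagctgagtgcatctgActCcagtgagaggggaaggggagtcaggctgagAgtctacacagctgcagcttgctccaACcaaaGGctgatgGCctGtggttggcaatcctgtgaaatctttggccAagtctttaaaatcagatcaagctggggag
Fbxw26 differed from Fbxw24 at 13 aligned bases of this stretch, Fbxw28 at 16 and Fbxw14 at 18. Each of the 12 promoters held the E-box pattern CANNTG (searched on both strands, as were the others), which occurs in 72.3% of all 32851 RefSeq promoters of that length. TAATTG, the element bound by the oocyte homeobox factor Nobox, was in 0 of 12 (8.00% of all promoters), and TATAAA in 0 of 12 (13.6%). CCAAT was in 1, that of Fbxw16 (37.4%), and TAATCC in 1, that of Fbxw21 (7.06%). These are matches of letters in a fixed window and no evidence for or against binding of any factor.

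Transcripts of all 14 chromosome 9 genes were present in all 9 libraries, and Fbxw24 stood far above the rest. To compare genes, CPM was divided by the length of the longest annotated transcript, 1483 to 2242 bases in these genes. On this scale of CPM per kb the mean level over 9 libraries was 412 for Fbxw24 (range 307 to 486), 119 for Fbxw28, 112 for Fbxw14, 96.6 for Fbxw19 and 86.6 for Fbxw16. Fbxw15 (66.8), Fbxw18 (62.2) and Fbxw27 (52.5 CPM per kb) came next. Fbxw22 (34.5), Fbxw20 (32.6), Fbxw21 (21.8), Fbxw26 (20.0) and Fbxw25 (17.1 CPM per kb) followed, with Fbxw13 the lowest of the 14 at 7.16. Fbxw24 was 3.46-fold above Fbxw28 and higher in 9 of 9 libraries, and the ranges of these genes over the libraries did not touch. Each of the other 13 neighbouring pairs in the order of levels, down to Fbxw17, had overlapping ranges. Within libraries some of these ranks still held: Fbxw25 was above Fbxw13 in 9 of 9, and Fbxw27 above Fbxw22 and Fbxw13 above Fbxw17 in 8 of 9. In the remaining 10 pairs the higher mean was the higher value in 4 to 7 of 9 libraries.

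Some neighbours along the cluster had similar levels, as Fbxw16 (86.6 CPM per kb) and Fbxw19 (96.6) did, and others did not. Fbxw14 and Fbxw28 had nearly equal levels too, but the split of reads between them is uncertain. Fbxw24 lies between Fbxw15 (66.8 CPM per kb) and Fbxw25 (17.1). Its level was 20.7-fold that of Fbxw26, whose upstream bases are printed above, and 57.5-fold that of Fbxw13.

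**Figure D2:**
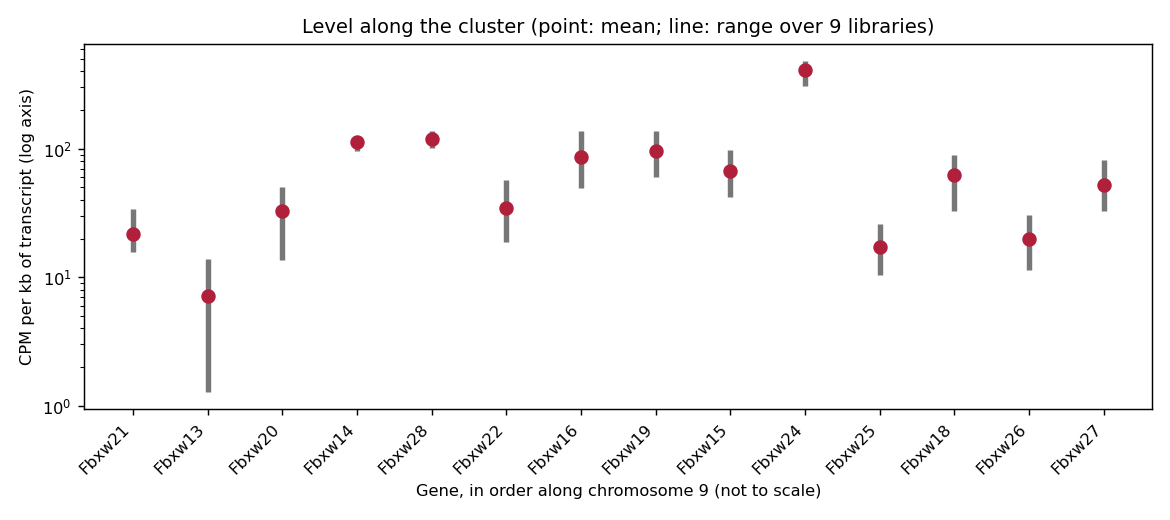
Level in CPM per kb of transcript (log axis) of the 14 genes in their order along chromosome 9; points are means and lines the range over 9 libraries. Fbxw24 is the high point at 412 and Fbxw13, near the other end, the lowest at 7.16.

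The summed level of the 15 rows was 1647, 1903 and 1591 CPM in SPN A, B and C, 2045, 1899 and 1785 in EPN, and 1981, 1942 and 1348 in LPN. On the deposited scale the groups overlapped in every comparison, and LPN C was the lowest library. The mean of the sum was 1714 ± 166 CPM for SPN, 1909 ± 131 for EPN and 1757 ± 354 for LPN (SD, n = 3 libraries). The log2 ratio of these means was 0.16 for EPN against SPN, 0.04 for LPN against SPN and -0.12 for LPN against EPN. After rescaling by median-of-ratios factors these were 0.20, 0.23 and 0.03, and the lowest EPN library (1801) then lay just above the highest SPN library (1800), so that EPN and SPN no longer overlapped. No p is given for the sum, since the members were chosen with results of these data known. Because whole embryos were pooled, fewer cells holding a transcript and less of it per cell cannot be told apart.

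LPN C was also the lowest library for 7 of the 14 tested members, and without it the LPN mean of the sum was 1961 CPM, a log2 ratio of 0.19 to SPN. Fbxw24 made up 28.7% to 38.1% of the sum, and Fbxw24, Fbxw14 and Fbxw28 together 52.7% to 63.1%. Without Fbxw24 the log2 ratios of the sum were 0.05, -0.07 and -0.12 in the same order of comparisons. As a share of each library the family was 0.135% to 0.205% of all reads.

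**Figure D3:**
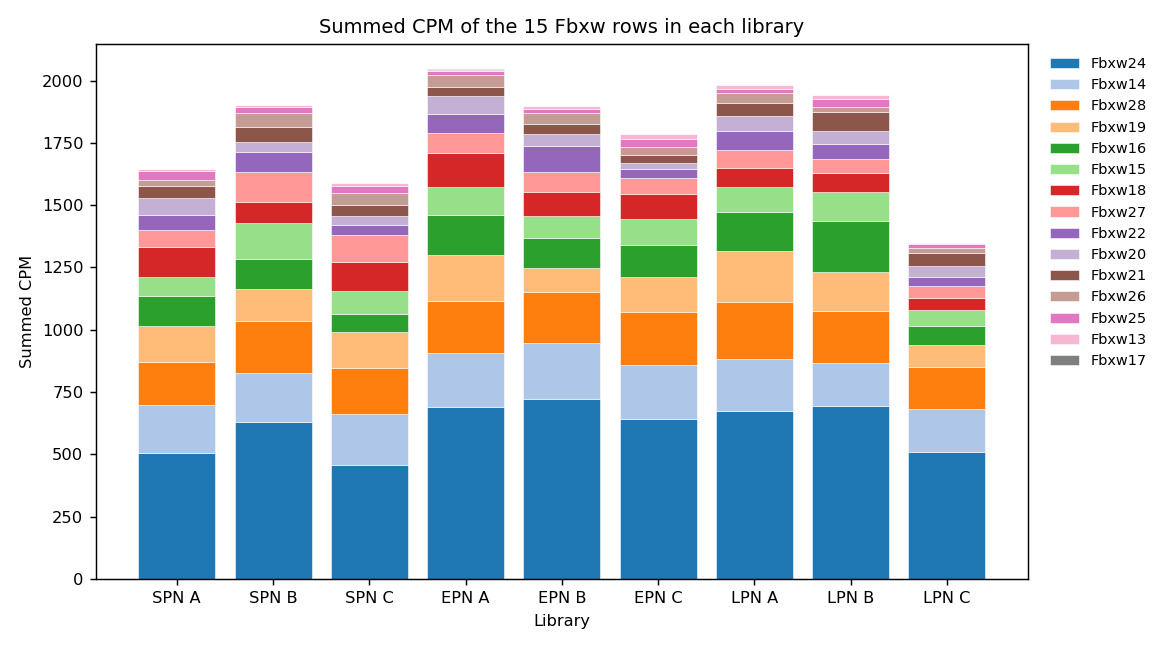
Summed CPM of the 15 rows in each of the 9 libraries, stacked by gene. The bars run from 1348 CPM in LPN C to 2045 in EPN A, with Fbxw24 as the largest piece in every bar.

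Fbxw24 was measured at 504, 628 and 456 CPM in SPN A, B and C, 688, 723 and 641 in EPN, and 675, 695 and 509 in LPN. The 3 EPN libraries lay above all 3 SPN libraries, whereas LPN overlapped both. Its mean was 529 ± 88.9 CPM in SPN and 684 ± 41.2 in EPN, a log2 difference of 0.38 (SE 0.26, 95% interval -0.15 to 0.91, limma adjusted p = 0.624). For LPN, at 626 ± 102 CPM, the log2 difference from SPN was 0.24 (interval -0.29 to 0.77, limma adjusted p = 0.580). The separation of EPN from SPN seen in the single values thus did not pass the test across genes.

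The near-identical pair was the steadiest of the family. Fbxw14 was at 195, 198 and 207 CPM in SPN, 219, 223 and 216 in EPN, and 206, 170 and 172 in LPN. On the deposited scale its libraries in EPN lay above those of both other groups. The log2 differences were 0.13 for EPN against SPN and -0.27 for LPN against EPN (limma adjusted p = 0.887 and 0.613). Fbxw28 was at 170, 207 and 181 CPM in SPN, 208, 204 and 215 in EPN, and 231, 212 and 170 in LPN, with all groups overlapping. Between the lowest and highest library Fbxw14 varied 1.31-fold and Fbxw28 1.36-fold, against 10.9-fold for Fbxw13. Adding the pair together removes the doubt about the split but not about reads left uncounted. Their sum was 386 ± 20.0 CPM in SPN, 429 ± 2.07 in EPN and 387 ± 48.0 in LPN. On the deposited scale EPN lay above SPN without overlap and LPN overlapped both. After division by the median-of-ratios factors, EPN A came below SPN A for Fbxw14 and for the sum of the pair.

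Fbxw15, described earlier in oocytes, was at 75.5, 147 and 91.5 CPM in SPN, 114, 88.4 and 103 in EPN, and 102, 115 and 62.7 in LPN. The groups overlapped, and the limma log2 difference from SPN was 0.01 in EPN (interval -0.65 to 0.67) and -0.16 in LPN (interval -0.82 to 0.51), the latter turning positive under every rescaling tried. Fbxw16 was at 121, 121 and 74.5 CPM in SPN, 159, 120 and 131 in EPN, and 157, 207 and 75.5 in LPN. Its LPN libraries held both the highest value and the next to lowest of the 9. Fbxw19 likewise ran from 89.1 CPM in LPN C to 204 in LPN A, so that the LPN libraries spanned the values of both other groups.

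Fbxw18 and Fbxw27, which lie near the same end of the cluster, had lower means in LPN. So had Fbxw25 and Fbxw26, the direct neighbours of Fbxw18, at log2 differences of -0.60 and -0.63 from SPN. Their groups overlapped (limma adjusted p = 0.374 and 0.320). Fbxw18 was at 122, 80.6 and 117 CPM in SPN, 135, 93.6 and 102 in EPN, and 73.1, 77.4 and 50.01 in LPN. On the deposited scale all 3 LPN libraries lay below all 6 others. The median-of-ratios factors, by which CPM is divided, were 0.905 for LPN A, 0.850 for LPN B and 1.08 for SPN B. On that scale SPN B came below LPN A and LPN B, while the LPN libraries stayed below those of EPN. The log2 difference was -0.66 from SPN (SE 0.32, interval -1.31 to -0.02, limma adjusted p = 0.170) and -0.72 from EPN (interval -1.36 to -0.08, limma adjusted p = 0.204). Fbxw27 was at 68.0, 122 and 105 CPM in SPN, 81.0, 82.6 and 62.5 in EPN, and 75.3, 55.0 and 48.2 in LPN. SPN A was the lowest SPN library, inside the LPN range. Its log2 difference between LPN and SPN was -0.70 (SE 0.33, interval -1.37 to -0.03, limma adjusted p = 0.164), and -0.94 with limma adjusted p = 0.0357 when SPN A was left out, the sole case among the alternatives run in which a member passed the test. Over the other alternatives its adjusted p ran from 0.129 to 0.407.

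Fbxw21, at the other end of the cluster, had its highest mean in LPN and its lowest in EPN. It was at 48.2, 60.1 and 43.0 CPM in SPN, 35.1, 37.0 and 35.7 in EPN, and 55.3, 75.9 and 49.8 in LPN. On the deposited scale the EPN libraries lay below all others, but after median-of-ratios rescaling EPN B came above SPN C. The log2 difference between LPN and EPN was 0.71 (SE 0.34, interval 0.01 to 1.41, limma adjusted p = 0.251), and between EPN and SPN -0.47 (interval -1.17 to 0.23, limma adjusted p = 0.646).

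Among the less abundant members, Fbxw22 ran from 34.2 to 105 CPM over the 9 libraries, Fbxw20 from 20.5 to 75.6, Fbxw26 from 20.6 to 55.4 and Fbxw25 from 15.6 to 39.0. In none of these did a pair of groups separate. Fbxw13 was the most variable, with 1.88 CPM in EPN A and 20.5 CPM in EPN C, both inside 1 group.

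Fbxw17, the gene on chromosome 13, was all but absent. SPN A held 8 reads of it (0.573 CPM), SPN B 8 reads (0.709 CPM) and EPN A 41 reads (2.96 CPM), and the other 6 libraries held 0 reads, including all of LPN. It did not reach 1 CPM in 3 libraries and was not tested.

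**Figure D4:**
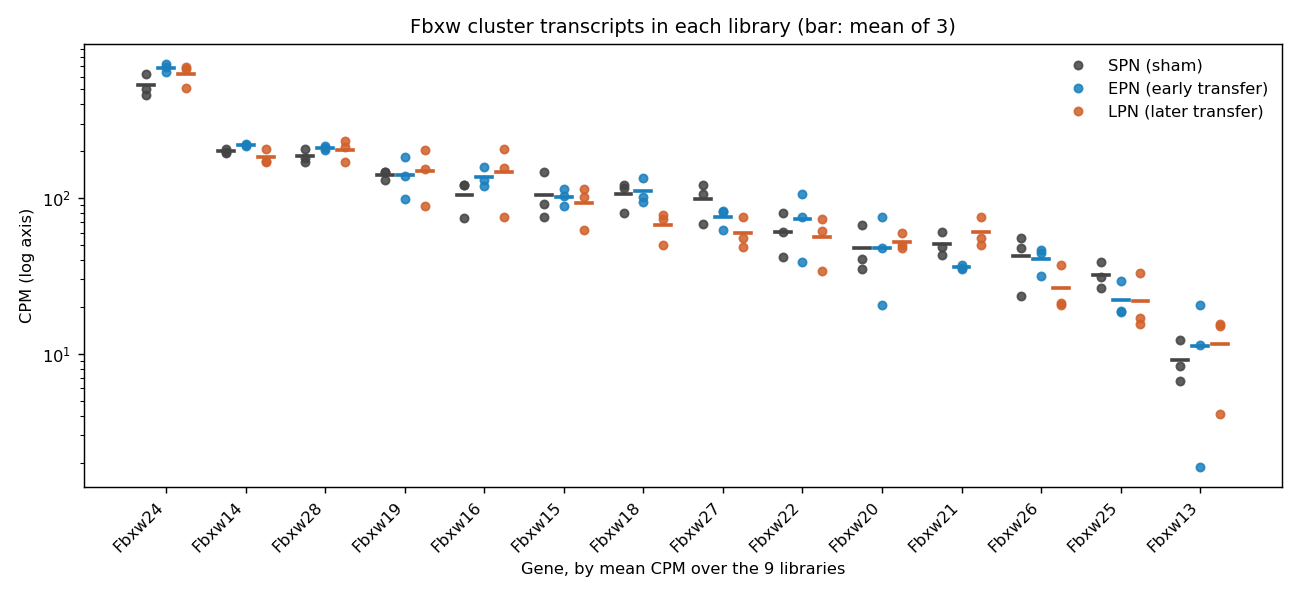
CPM (log axis) of each of the 14 tested genes in every library; points are libraries, coloured by group, and short bars the means of 3. The 3 groups lie on top of each other for most genes, while Fbxw18 in LPN and Fbxw21 in EPN lie below the other groups.

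The tests across all genes called none of the 14 members in any comparison. In EPN against SPN 0 of 14 had a limma adjusted p under 0.05, where 0.108% of the 14876 tested genes did; the lowest member value was 0.624. For LPN and SPN it was 0 of 14, where 8.8% of all tested genes were called, with a lowest member value of 0.164. For LPN and EPN it was 0 of 14 against 1.53%, with a lowest value of 0.204. The F test over the 3 groups called 0 of 14 against 5.73%. Before adjustment, the members with p under 0.05 numbered 0 between EPN and SPN (11.0% of tested genes), 2 between LPN and SPN (Fbxw18 and Fbxw27; 26.9%), 2 between LPN and EPN (Fbxw18 and Fbxw21; 19.3%) and 0 by the F test (25.3%). On whole reads recovered from the CPM, edgeR and DESeq2 also called 0 of 14 in each of the 3 comparisons. Of all 14876 tested genes edgeR called 0, 477 and 17 there, and DESeq2 117, 1826 and 925. Between LPN and SPN, 0 members had an unadjusted p under 0.05 with edgeR, DESeq2, median-of-ratios scaling or in the 6 libraries compared. Between LPN and EPN they numbered 1, 1, 1 and 2 in that order.

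Groups that did not overlap were found for 3 of 14 members between EPN and SPN (Fbxw14, Fbxw21 and Fbxw24) where 14.6% of all tested genes had them, for 1 between LPN and SPN (Fbxw18; 27.5%) and for 3 between LPN and EPN (Fbxw14, Fbxw18 and Fbxw21; 26.6%). These counts hold for the deposited scale and were not repeated after rescaling. Under median-of-ratios factors Fbxw24 stayed apart between EPN and SPN, whereas Fbxw14 and Fbxw21 overlapped there. Fbxw18 overlapped between LPN and SPN. Between LPN and EPN, Fbxw18 and Fbxw21 stayed apart and Fbxw14 overlapped. With so few members, the shares of groups without overlap cannot be set apart from the background. The signs were mixed, with 8, 7 and 4 of 14 members above 0 in the 3 comparisons, where 45.5%, 43.0% and 43.3% of all tested genes were. The counts above 0 were 9, 10 and 7 with median-of-ratios scaling and 10, 10 and 9 with DESeq2.

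How large a difference the data leave room for can be read from the intervals. All 14 fitted log2 differences lay between -1 and 1 in each comparison, and the standard errors ran from 0.26 for Fbxw24 to 0.64 for Fbxw13. The 95% interval itself lay within -1 to 1 for 9 members between EPN and SPN, for 7 between LPN and SPN and for 7 between LPN and EPN. For the remaining members the interval reached past a 2-fold difference in at least 1 direction. Fitted differences under 0.5 in size were found for 13, 10 and 11 of 14 members, against 57.6%, 40.0% and 46.9% of all tested genes. All 14 members reached a mean of 5 CPM, whereas only 9819 genes did, so this background was not matched in level. The same holds for the shares of all tested genes given above. The median log2 difference of the members was 0.01, -0.06 and -0.10, against -0.07, -0.17 and -0.14 for all tested genes, which put the members 0.08, 0.11 and 0.03 above the median gene. Median-of-ratios scaling moved the median of all genes in LPN against SPN from -0.17 to -0.02, and that of the members to 0.12. EPN and LPN were both compared with the same SPN libraries, so these comparisons are not independent of each other.

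**Figure D5:**
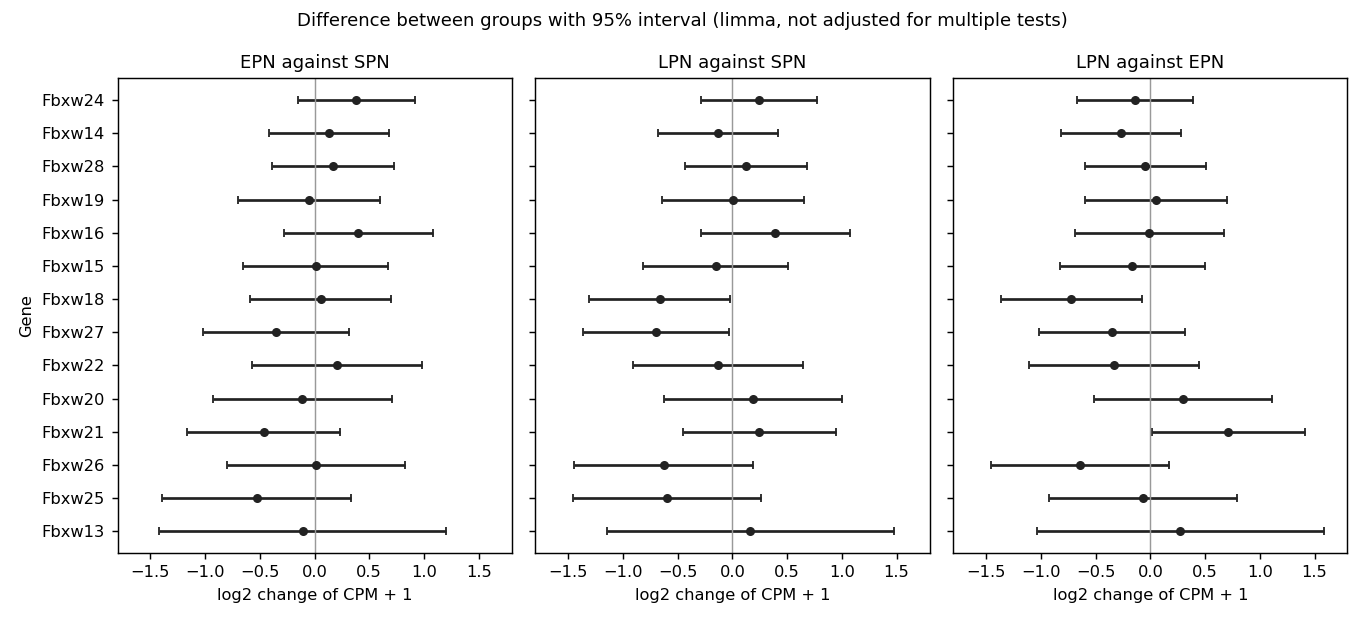
Fitted log2 difference of CPM + 1 with its 95% interval (limma, not adjusted for multiple tests) for the 14 tested genes in the 3 comparisons. All points lie between -1 and 1, and the intervals that exclude 0 are those of Fbxw18 and Fbxw27 (LPN against SPN) and of Fbxw18 and Fbxw21 (LPN against EPN).

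The members did not vary as a block from library to library. Over the 91 pairs of tested members, Pearson correlations of log2(CPM + 1) over 9 libraries ran from -0.78 to 0.91 with a median of 0.19, and 67 were positive. The points of each pair share a library, its depth and its scaling, so these are descriptions only. Against the sum of all other members, Fbxw28 had the highest correlation at 0.82 and Fbxw25 the lowest at -0.04.

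Genes with the pattern most like the summed family were sought among 9075 tested genes outside the family whose mean reached 5 CPM and whose symbol is not a predicted or clone name, by Pearson correlation over the same 9 libraries. The 8 highest were Hif1an (0.93), which hydroxylates the hypoxia factor Hif1a, the actin-binding protein gene Nexn (0.92), the E3 ligase gene Pja2 (0.89), Nae1 (0.88), Chek1 (0.88), Tmem50a (0.85), Zfp101 (0.84) and Ift80 (0.84). Nae1 encodes a subunit of the enzyme that activates Nedd8, and Chek1 the checkpoint kinase. With 9 libraries and that many candidates, such values describe likeness and carry no test.

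The common subunits of the ligase stayed abundant beside their receptors. Cul1, the scaffold, fell in LPN: it was at 1188, 1297 and 1496 CPM in SPN, 1113, 965 and 1098 in EPN, and 760, 703 and 538 in LPN. The LPN libraries all lay below the other 6, and the log2 change from SPN was -0.9998 (SE 0.26, limma adjusted p = 0.0171). The call was lost without SPN B, SPN C or LPN B (-1.01, -0.91 and -1.05, adjusted p = 0.0527, 0.105 and 0.0591), with edgeR and with median-of-ratios scaling, and its adjusted p ran from 0.00335 to 0.105 over the 17 alternatives. Skp1, the adaptor that binds the F-box, was at 695 ± 117 CPM in SPN, 579 ± 87.5 in EPN and 617 ± 204 in LPN, and Rbx1, the RING subunit, at 540 ± 190, 604 ± 126 and 596 ± 60.9. Neither passed the test, with limma adjusted p of 0.647 and 0.675 in LPN against SPN. Of the 7 core subunits tested, 1 fell in LPN against SPN and 6 did not pass.

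Other parts of the machinery were taken from lists chosen with earlier results of these data known. Of 44 tested genes in 4 lists, the core subunits included, 2 rose and 3 fell in LPN against SPN. That became 5 and 10 without SPN A, 0 and 1 without SPN B, 0 and 0 without SPN C or LPN B, 0 and 2 without LPN A, 1 and 5 without LPN C, 2 and 0 with median-of-ratios scaling and 1 and 0 with edgeR. As background, 3.26% of all tested genes rose and 5.54% fell in LPN against SPN, and 0.692% rose in LPN against EPN. In LPN against SPN the median log2 difference was -0.72 for the E1 and E2 genes and -0.60 for the Nedd8 pathway. It was -0.16 for each other list and -0.17 for all tested genes. With median-of-ratios scaling the first 2 were -0.54 and -0.42, beside -0.02 for all tested genes. The E1 and E2 genes summed to 3220 to 3740 CPM in SPN, 2583 to 2959 in EPN and 1838 to 2079 in LPN. The Nedd8 pathway genes summed to 1503 to 1693, 1286 to 1405 and 1042 to 1309 CPM. Of 12 E1 and E2 enzyme genes 1 fell in LPN against SPN, the E2 gene Ube2d2a (log2 change -1.14, limma adjusted p = 0.0358). SPN A, at 253 CPM of Ube2d2a where SPN B had 899 and SPN C 1002, lay within the LPN range. The Ube2d2a call was lost without SPN B, SPN C, LPN A or LPN B (-0.86, -0.78, -1.03 and -1.14, adjusted p between 0.105 and 0.249), with a pseudocount of 0.1 CPM, with no filter, with median-of-ratios scaling, with edgeR and in the 6 libraries compared, and held in 8 of 17 alternatives. Of 11 Nedd8 pathway genes 1 fell, Dcun1d5, which helps attach Nedd8 to cullins, from 587 ± 96.3 to 290 ± 29.4 CPM (-1.01, limma adjusted p = 0.0177). That of Dcun1d5 was lost without SPN C or LPN B (-0.87 and -0.92, adjusted p = 0.122 and 0.0931), with median-of-ratios scaling and with edgeR.

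Of 14 genes of the signalosome and of receptor exchange 2 rose in LPN against SPN, the signalosome subunits Cops3 (1.30, limma adjusted p = 0.0270) and Cops6 (1.03, limma adjusted p = 0.0265). Cops3 was at 32.8 ± 7.24 CPM in SPN, 22.8 ± 1.79 in EPN and 82.3 ± 19.6 in LPN, and it also rose against EPN (1.78, limma adjusted p = 0.0190). The Cops3 calls depended on single libraries. Against SPN the call was lost without SPN B, SPN C, LPN A or LPN B (adjusted p between 0.0798 and 0.131), and against EPN without EPN A, EPN C, LPN A or LPN B (between 0.0799 and 0.135) and with no filter. That of Cops6 was lost without SPN B, SPN C, LPN A, LPN B or LPN C (between 0.0539 and 0.163), with edgeR and in the 6 libraries compared. Between EPN and SPN limma called 0 of the 44 tested genes of these 4 lists (1 at an unadjusted p under 0.05), as did edgeR and DESeq2; without SPN A, 2 were called lower in EPN.

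Most receptors outside the cluster had no call. Of 8 other Fbxw class genes tested, 1 rose in LPN against SPN: Btrc, the receptor for beta-catenin and many other substrates, was at 19.2 ± 0.611 CPM in SPN, 44.9 ± 15.3 in EPN and 54.9 ± 0.674 in LPN (1.47, limma adjusted p = 0.0158). The Btrc call was lost without SPN C, LPN A or LPN B (adjusted p = 0.0728, 0.0539 and 0.0663). The class as a whole leaned the other way. Its median log2 difference in LPN against SPN was -0.65, and -0.52 with median-of-ratios scaling. Its 9 genes with values summed to 225.4 to 258.9 CPM in SPN, 190.1 to 251.0 in EPN and 159.4 to 225.5 in LPN. Under the stricter filter at 5 CPM, 1 rose and 2 fell of 6 tested. Of 51 tested genes of the Fbxo and Fbxl classes with Ccnf and Skp2, 1 rose and 3 fell in LPN against SPN. These counts depended on single libraries and on the tool: 3 and 9 without SPN A, 1 and 1 without SPN B or LPN B, 0 and 0 without SPN C, 1 and 2 without LPN A, 2 and 4 without LPN C, 4 and 3 with DESeq2 and 1 and 0 with edgeR. Fbxo15 rose from 786 ± 128 to 1696 ± 115 CPM (1.12, limma adjusted p = 0.0107; 0.0869 without SPN C). Fbxo8 fell from 253 ± 67.4 to 105 ± 24.3 CPM (-1.26, limma adjusted p = 0.0107; 0.0503 without SPN C). The other two that fell, Fbxl6 (-1.11, limma adjusted p = 0.0223) and Fbxl14 (-2.22, limma adjusted p = 0.0354), are named after their values were seen, and both calls were lost without SPN B, SPN C or LPN B, that of Fbxl14 also without LPN A. The Fbxl6 call was also lost with median-of-ratios scaling and edgeR, that of Fbxl14 with a pseudocount of 0.1 CPM, no filter, edgeR and in the 6 libraries compared, and that of Fbxo8 with edgeR. In LPN against EPN Fbxo47 (1.78, limma adjusted p = 0.0166) and Fbxl4 (2.28, limma adjusted p = 0.0393) rose. The Fbxo47 call was lost without EPN A, LPN A or LPN B (adjusted p between 0.0728 and 0.117), and that of Fbxl4 without any 1 of the 6 libraries of its groups (between 0.0536 and 0.199). Both were also lost with no filter and with edgeR, and that of Fbxl4 with a pseudocount of 0.1 CPM.

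Other transcripts stored in the oocyte give the setting for a maternal gene family. Of 47 tested oocyte transcripts outside the cluster, 14 fell and 2 rose in LPN against SPN, with a median log2 difference of -0.75 beside -0.06 for the 14 cluster members and -0.17 for all tested genes. Whether the cluster differs from that list was not tested. The count of 14 ran from 3 without SPN C to 13 without LPN A over the libraries left out, and was 8 with median-of-ratios scaling (median -0.56), 9 with no filter and 5 with edgeR. The oocyte growth factor gene Gdf9 fell from 160 ± 39.4 to 61.9 ± 9.62 CPM (-1.34, limma adjusted p = 0.00960; 0.0911 without SPN C and 0.0592 without LPN B). Bcl2l10, an apoptosis regulator of the oocyte, fell from 1573 ± 376 to 512 ± 146 CPM (-1.63, limma adjusted p = 0.00145), a call kept under all 17 alternatives. Zp3, which encodes a protein of the egg coat, rose from 86.6 ± 17.8 to 196 ± 43.9 CPM (1.16, limma adjusted p = 0.0166; 0.0786, 0.0503 and 0.0835 without SPN B, SPN C and LPN B), and Rfpl4b, named after its value was seen, was the other that rose (1.34), a call lost without SPN C or LPN B, with no filter and with edgeR.

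Of 32 genes switched on at the 2-cell stage, 12 rose in LPN against SPN and none fell (1 did without SPN A), with a median log2 difference of 1.08. Without single libraries that count ran from 4 (without SPN C) to 22 (without SPN A), and it was 6 with edgeR and 7 with no filter. Zscan4d, a marker of that stage, was at 369 ± 180 CPM in SPN, 621 ± 327 in EPN and 706 ± 216 in LPN (1.02 in LPN against SPN, limma adjusted p = 0.0593, and 0.0115 without SPN A).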

How the data were processed

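Poly(A) RNA of 9 pools of 3 whole mouse embryos was sequenced. Per the labels' protocols, cDNA came from the Smart-seq2 v4 kit, Nextera XT turned it into libraries, and both ends were sequenced over 150 bases (NovaSeq). The submitters' processing notes name edgeR, HISAT2 2.2.1, R 3.3.3 and Trim Galore 0.6.7, and the assembly GRCm39; not given in the sources used here are the read counter, its handling of reads with several matches, its strand setting and the annotation. Values were deposited by the authors as CPM for 19359 genes in 9 columns. All deposited CPM values (100% in each library, tolerance 0.01 reads) were whole multiples of 1 read, worth 0.0643 to 0.131 CPM, which gave back reads and library totals; 3.66% to 5.68% of a total lay outside the table.

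The members and lists were chosen with earlier results of these data known. Tested were the 14876 genes that reached 1 CPM in 3 or more libraries, as log2(CPM + 1), so differences of low genes are understated. A single limma 3.58.1 model (R 4.3.3, trended variance, 9 libraries, 6 residual and 25.9 prior degrees of freedom, no covariate) gave an F test and 3 contrasts (two-sided), adjusted by Benjamini-Hochberg over all tested genes; a call is an adjusted p under 0.05. It was tested on simulated data. Each ± is an SD over 3 libraries, each interval a 95% limma interval. Without molecular identifiers, reads are not independent molecules.

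Named were all members, up to 4 called genes of each ligase list by smallest F test p, Skp1, Cul1, Rbx1, the reference genes Gdf9, Zp3, Bcl2l10 and Zscan4d, and the 8 genes most like the summed family. Transcript identity came from global alignment of the longest protein-coding transcripts of GENCODE M21 (GRCm38), promoters from RefSeq (GRCm38.p6). Alternatives were another pseudocount (0.1 CPM), no filter, a mean of at least 5 CPM, median-of-ratios scaling, edgeR 4.0.16 and DESeq2 1.42.0 on recovered reads, a replicate block, the 6 libraries compared, and each library left out.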

Additional observations from a re-analysis of the deposited data

How the results depend on the processing

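Of 714 member values under 17 alternatives, 647 kept their sign and side of the threshold, 66 changed sign and 1 passed the test, that of Fbxw27 without SPN A. The number of members called stayed at 0 under all alternatives for EPN and SPN, for LPN and EPN and by the F test, and was 0 to 1 over the libraries left out for LPN and SPN. No member result whose sign changed had a size above 0.30 log2 in the main fit. After the change values reached 0.73, for Fbxw13 in EPN against SPN with 1 library left out. The ratios of the summed family moved from their main values by less than the spread between single libraries (an SD of 0.205 log2). They were 0.20, 0.23 and 0.03 under rescaling, and 0.10 to 0.24, -0.06 to 0.19 and -0.21 to 0.04 without single libraries. A mean of 3 libraries spreads less than that SD, and LPN against SPN moved from 0.04 to 0.23 under rescaling. The causes of changes given here were not tested.

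Changed signs in EPN against SPN were Fbxw13 at 0.41 (edgeR) and 0.42 (DESeq2), and Fbxw19 at 0.0033 (median-of-ratios scaling), 0.018 (edgeR) and 0.019 (DESeq2). In LPN against SPN, with median-of-ratios scaling, edgeR and DESeq2 in that order, they were Fbxw14 at 0.047, 0.023 and 0.0602, Fbxw15 at 0.025, 0.018 and 0.064, Fbxw22 at 0.04997, 0.048 and 0.093, and Skp1 at 0.027 with DESeq2. In LPN against EPN, in the same order, they were Fbxw16 at 0.12, 0.24 and 0.29, Fbxw25 at 0.056, 0.091 and 0.14, Fbxw28 at 0.083, 0.077 and 0.11, Fbxw15 at 0.00297 with edgeR and 0.045 with DESeq2, and Fbxw24 at 0.023 with DESeq2.

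Signs also changed when 1 library was left out, with these ranges. In EPN against SPN they were -0.72 to 0.73 for Fbxw13, -0.20 to 0.28 for Fbxw15, -0.13 to 0.17 for Fbxw18, -0.27 to 0.18 for Fbxw19, -0.52 to 0.39 for Fbxw20, -0.12 to 0.60 for Fbxw22 and -0.36 to 0.25 for Fbxw26. In LPN against SPN they were -0.13 to 0.72 for Fbxw13, -0.36 to 0.12 for Fbxw15, -0.26 to 0.34 for Fbxw19, -0.36 to 0.19 for Fbxw22, -0.41 to 0.087 for Skp1 and -0.12 to 0.43 for Rbx1. In LPN against EPN they were -0.56 to 0.89 for Fbxw13, -0.34 to 0.094 for Fbxw15, -0.32 to 0.41 for Fbxw16, -0.21 to 0.38 for Fbxw19, -0.21 to 0.71 for Fbxw20, -0.22 to 0.00285 for Fbxw24, -0.39 to 0.14 for Fbxw25 and -0.14 to 0.0803 for Fbxw28.

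The members were too few to compare how far their number of calls moved with that of all tested genes. The number of tested genes called depended on the setting. In EPN against SPN limma called 16 (1643 at an unadjusted p under 0.05), and 4 with a pseudocount of 0.1 CPM, 0 with no filter (1859 unadjusted), 3 with median-of-ratios scaling, 0 with edgeR (1304 unadjusted), 117 with DESeq2, and 0 (without EPN C) to 458 (without SPN A) with 1 library left out. In LPN against SPN it called 1309, and 494 with no filter, 477 with edgeR, 772 in the 6 libraries compared, and 123 (without SPN C) to 2753 (without SPN A). Calls there were 485 higher and 824 lower, but 665 and 544 with median-of-ratios scaling. In LPN against EPN it called 228 (103 higher and 125 lower; 127 and 53 with that scaling), and 62 with the lower pseudocount, 0 with no filter (3015 unadjusted), 395 at a mean of at least 5 CPM, 17 with edgeR, 925 with DESeq2, 588 in the 6 libraries compared, and 4 (without LPN B) to 789 (without SPN A). The F test called 852, and 546, 0 (3805 unadjusted), 110 and 1715 with the lower pseudocount, no filter, edgeR and DESeq2, and 63 (without LPN B) to 2565 (without SPN A).

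With the letters A, B and C as a replicate block, 0 members were called in each comparison. Of all tested genes, 25 were called between EPN and SPN (16 without the block) and 1644 between LPN and SPN (1309). Between LPN and EPN 480 were called (228), and 1255 by the F test (852). Libraries of the same letter deviated together weakly at most: deviations from group means correlated at -0.02 to 0.09 over 9 pairs of the same letter. Over 18 other pairs they correlated at -0.10 to 0.10. A library resembled its own letter best in 11 of 18 comparisons, and whether the letters mark a pairing was not tested.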
